A study of Mus musculus with 10 samples.

Results

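Interleukins and tumour necrosis factor (TNF) family proteins, with their receptors and binding proteins, were compared between the pancreatic islets of 2 inbred mouse strains. A gene was taken where its symbol begins with Il and a digit or with Tnf, and each gene was read from 1 probe set, the brightest that carries its symbol alone. This gave 114 genes of 19938 measured: 38 interleukins, 37 interleukin receptors and binding proteins, 10 TNF ligands, 20 TNF receptors and 9 others, which are 8 TNF-induced genes and relatives and the antisense RNA Il1bos. No filter on dim values was applied, so all 114 were tested. The interleukin-1 receptor Il1r1, its relative Il1rl1, the common gamma chain Il2rg and Il22 had no such probe set under these names and were not analysed here.

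The islets came from male mice of the strains NZO/Hl, which is obese and prone to diabetes, and C3HeB/FeJ, called C3H here. All animals were 6 weeks old and had been fed a diet with 45% of energy from fat from weaning at day 21, and all islets spent a night in medium with 10 mM glucose before RNA was taken. The labels name no transgene, drug or other treatment in either strain. There were 5 arrays per strain, numbered in order of deposition, and the labels do not say whether an array holds pooled animals, so every p-value here reflects the spread from array to array, which may be technical.

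Values are log2 expression values. The split between brighter and dimmer genes used here is the mean of the array medians, 6.96, and the single array medians were 6.93 to 7.05. Brightness depends on the probes of a gene, so the level of one gene is not set against that of another. The islet label was met by bright endocrine markers, with a mean over 12 beta cell markers of 11.41 to 11.53 in C3H and 10.71 to 11.50 in NZO. Exocrine pancreas was present too: the mean over 21 acinar (digestive enzyme) genes lay between 8.20 and 9.01 in C3H. In NZO, replicates 1 to 3 lay between 9.75 and 10.22, while replicate 4 had 11.49 and replicate 5 had 11.36. The titles of these last 2 arrays also differ from the rest, with 1 animal number and a range of numbers where the others carry a pair. C3H replicate 4 had the highest array median of all. In bulk tissue, a change in the number of cells of one type and a change in the RNA made per cell cannot be told apart, which holds for every difference below. Sequence differences between the strains under the probes were not tested, and only 4 of the 114 members had several probe sets.

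Interleukins are secreted signals that act through paired receptor chains. Those of the interleukin-1 and interleukin-17 groups, like TNF, reach NF-kB, and most others reach the JAK kinases and STAT factors. Several members oppose their own pathway: decoy receptors and binding proteins such as Il1r2, Il18bp and Tnfrsf11b bind a ligand without passing on its signal, and Il1rn blocks the interleukin-1 receptor. In islets, interleukin-1 and TNF are known to impair beta cells, and islet macrophages are a known source of both.

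Of the 114 genes, 17 were higher and 2 lower in NZO islets, where a call is an adjusted p under 0.05 from limma over all genes. That is 16.7% of the families, beside 10.1% of all genes called in either direction, with 5.47% higher and 4.61% lower. The strains did not overlap for 12 of the 114 (10.5%), beside 9.14% of all genes. The median difference, NZO minus C3H, was 0.05 log2 units over the 114 and -0.02 over all genes. Single genes ran from -0.50 for the receptor chain Il3ra to 1.50 for the cytokine Il6.

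Calls were counted on each side of the array median. Of the 46 members above the array median, 14 were called (30.4%), 13 of them higher in NZO, where 13.7% of all genes that bright were called. Of the 68 members below it, 5 were called (7.35%), 4 of them higher, where 4.69% of all such genes were called. The gene just above the split was Il12rb1, at a mean of 6.98, and the one just below was Tnfsf14, at 6.93. Of the 24 members below the 25th percentile of brightness, 5.70, limma called Il3 alone (4.17%), beside 2.26% of all genes that dim. The split uses the mean over all 10 arrays, and the called genes Tnfsf10 and Il1r2 were above it only through NZO, with C3H means of 6.89 and 6.83. Split by the C3H mean instead, 12 of 42 members above were called (28.6%), beside 13.2% of all such genes, and 7 of 72 below (9.72%), beside 5.46%.

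**Figure D1:**
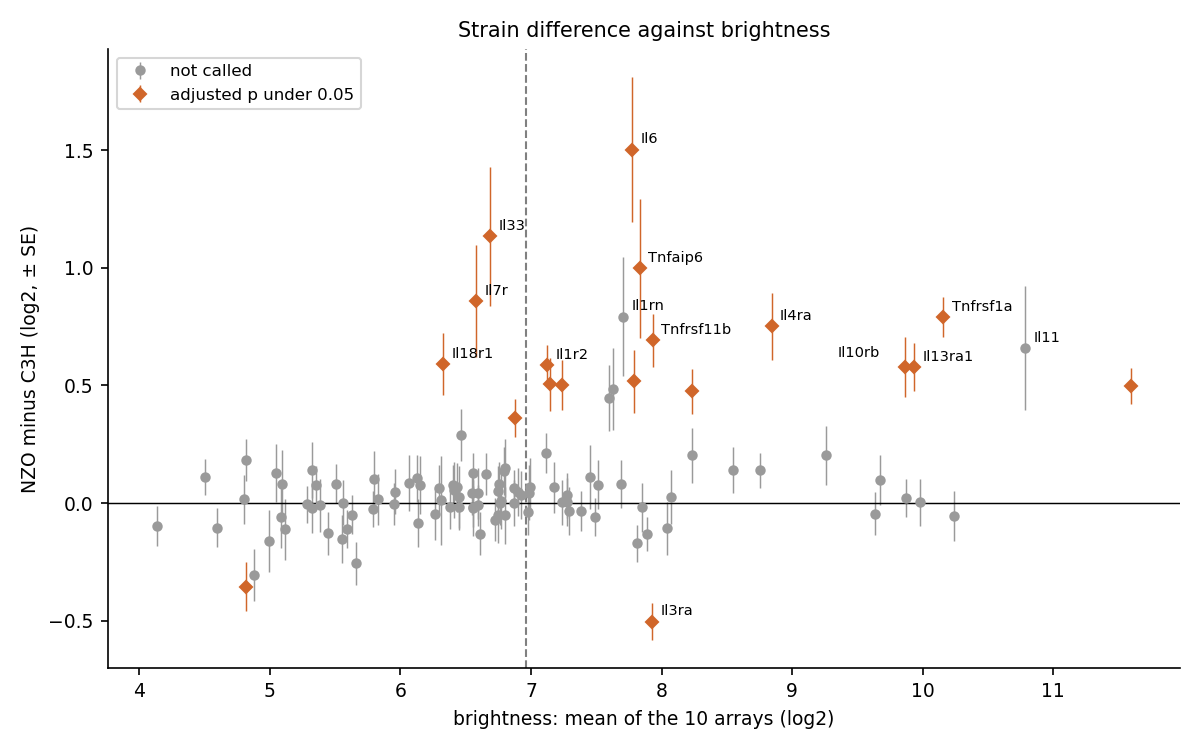
Difference between the strains (NZO minus C3H, log2) of each of the 114 genes against its mean log2 value over the 10 arrays. Orange diamonds are the 19 genes with an adjusted p under 0.05 by limma, grey circles the others, bars 1 SE, and the dashed line is the mean array median of 6.96, with 14 of the 46 genes to its right and 5 of the 68 to its left called.

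By role, receptors and binding proteins held 13 of the 19 calls. Among them, 12 of 57 were higher and 1 lower (22.8% called), while among the ligands of both families 4 of 48 were higher and 1 lower (10.4%). The share of all genes called was 10.1%, near that of the ligands. Ligands were mostly dim, with 36 of the 48 below the array median. Above it, 10 of 28 receptors and binding proteins (35.7%) and 3 of 12 ligands (25%) were called, beside 13.7% of all genes that bright. Below it, 3 of 29 (10.3%) and 2 of 36 (5.56%) were called, beside 4.69% of all such genes. For TNF alone, 1 of 3 ligands (33.3%) and 3 of 13 receptors (23.1%) above the median were called. The called TNF ligand was Tnfsf10. It and Il1r2, which is among the 10 called receptors and binding proteins, were above the median only through NZO. The difference between receptors and ligands was not tested. Interleukin receptors and binding proteins gave 9 higher and 1 lower of 37, interleukins 3 higher and 1 lower of 38, TNF receptors 3 higher of 20, TNF ligands 1 higher of 10, and the TNF-induced group 1 higher of 9. In that order 27%, 10.5%, 15%, 10% and 11.1% were called, beside 10.1% of all genes.

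The receptor Tnfrsf1a, through which most cells answer soluble TNF, had the smallest adjusted p of all 114. Its values on the 5 C3H arrays were 9.69, 9.84, 9.84, 9.64 and 9.82, and on the NZO arrays 10.58, 10.68, 10.41, 10.38 and 10.72. Each NZO array lay above each C3H array, and the spread inside a strain was small beside the gap. The C3H mean was 9.76 ± 0.10 and the NZO mean 10.55 ± 0.15 (SD, n = 5 each), a difference of 0.79 (SE 0.09) or 1.73-fold with an adjusted p of 3.62e-05 by limma. The other TNF receptor, Tnfrsf1b, which is found mainly on immune and endothelial cells, read 7.23, 7.41, 7.24, 7.42 and 7.55 in C3H and 7.63, 7.37, 7.80, 8.04 and 8.26 in NZO. NZO replicate 2 fell within the C3H values and replicates 4 and 5 were highest. The difference of 0.45 (SE 0.14) missed the threshold, with an adjusted p of 0.0574 by limma. It was called without NZO replicate 2 (0.56, adjusted p 0.00635 by limma) and under 3 other alternatives, and fell to 0.23 without NZO replicates 4 and 5, with adjusted p from 0.00635 to 0.998 over all alternatives.

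Tnfrsf11b encodes osteoprotegerin, a secreted decoy for the ligands Tnfsf11 and Tnfsf10. It read 7.42, 7.73, 7.45, 7.48 and 7.86 in C3H and 8.36, 8.02, 8.16, 8.30 and 8.57 in NZO, without overlap. The difference was 0.69 (SE 0.11), or 1.62-fold, with an adjusted p of 0.00115 by limma. Tnfsf10, the death ligand TRAIL, was likewise higher in NZO, with 6.79 to 7.02 in C3H and 7.86, 7.31, 7.20, 7.29 and 7.33 in NZO. NZO replicate 1 stood well above the other NZO arrays. The difference was 0.50 (SE 0.11, adjusted p 0.00937 by limma), and 0.39 without that array. Tnfrsf10b, the mouse death receptor for TRAIL, differed by 0.52 (SE 0.13, adjusted p 0.0222 by limma), with 7.36 to 7.72 in C3H and 7.64 to 8.47 in NZO. Its strains overlapped, and leaving out C3H replicate 1, C3H replicate 3 or NZO replicate 5 in turn ended the call, with an adjusted p of up to 0.066.

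The ligand Tnf itself was dim, with 6.29, 6.20, 6.25, 6.59 and 6.26 in C3H and 6.56, 6.35, 6.44, 6.87 and 6.83 in NZO. C3H replicate 4 stood above the other C3H arrays and inside the NZO values. The difference was 0.29 (SE 0.11) with an adjusted p of 0.133 by limma, and without C3H replicate 4 it was 0.36 and called (adjusted p 0.0398, and 0.0156 to 0.998 over all alternatives). Tnfsf11, the bone and lymph node cytokine RANKL, differed by 0.03 and Tnfsf9, the ligand of the co-stimulator 4-1BB, by 0.11. Neither passed, with 95% intervals of -0.22 to 0.27 and -0.18 to 0.40. Among bright TNF receptors, Tnfrsf12a, the receptor of the cytokine TWEAK, differed by 0.10 and Tnfrsf23 by -0.05, and neither passed. Tnfrsf23 has close copies in Tnfrsf22 and Tnfrsf26, so its probes may read more than one of them.

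Among the TNF-induced genes, Tnfaip6, a secreted hyaluronan-binding protein with anti-inflammatory action, was called. It read 7.07, 7.96, 7.15, 7.08 and 7.40 in C3H and 8.24, 7.29, 7.99, 9.31 and 8.82 in NZO. NZO replicate 2 lay inside the C3H values, while replicates 4 and 5 were far above them. The difference of 1.00 (SE 0.30, adjusted p 0.0467 by limma) lost its call when any array other than C3H replicate 2 or NZO replicate 2 was left out, with an adjusted p of up to 0.124. Tnfaip3, the enzyme A20 that limits NF-kB signalling and is itself an NF-kB target, read 7.38 to 7.54 in C3H and 7.42, 7.24, 7.57, 7.70 and 7.84 in NZO. Its difference was 0.08 (95% interval -0.14 to 0.30) and did not pass. Tnfaip1 and Tnfaip2 differed by 0.02 and 0.20 and Tnfaip8, which limits cell death, by 0.49 (SE 0.18, adjusted p 0.105 by limma), none of them called. Tnfaip8 was called without NZO replicate 2 (0.62, adjusted p 0.0145 by limma) and with array weights (0.49, adjusted p 0.032 by limma). It differed by 0.17 without NZO replicates 4 and 5. A second, dimmer probe set of Tnfaip8 gave 0.12.

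Il6, a cytokine that islet endocrine, stromal and immune cells can all release, had the largest difference of the 114. It read 6.86, 7.43, 7.03, 6.21 and 7.58 in C3H and 8.04, 7.57, 8.68, 9.19 and 9.15 in NZO. The strains touched only at their edges, where the lowest NZO array, replicate 2, lay just under the highest C3H array. Means were 7.02 ± 0.54 and 8.52 ± 0.71 (SD, n = 5 each), a difference of 1.50 (SE 0.31) or 2.83-fold with an adjusted p of 0.00543 by limma. Il6st (gp130), the signalling chain shared by the receptors of interleukin-6, interleukin-11 and related cytokines, was higher too and varied little. It read 11.19, 11.41, 11.40, 11.30 and 11.44 in C3H and 11.98, 11.85, 11.84, 11.77 and 11.79 in NZO. No NZO array overlapped a C3H array, and the difference was 0.50 (SE 0.08, 1.41-fold, adjusted p 0.000616 by limma).

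Il6ra, the chain that binds interleukin-6 before gp130 joins it, did not follow. Its values were 9.87 to 10.04 in C3H and 10.15, 10.23, 10.04, 9.76 and 9.73 in NZO, and the difference of 0.01 had a 95% interval of -0.21 to 0.22. The NZO arrays lay on both sides of the C3H arrays, with replicates 4 and 5 lowest. Il11, another gp130 cytokine, read 10.27, 10.77, 10.24, 10.24 and 10.76 in C3H and 10.64, 10.20, 11.11, 11.78 and 11.83 in NZO. Replicates 4 and 5 alone were more than 1 log2 unit above the highest C3H array. Its difference of 0.66 (SE 0.26, adjusted p 0.149 by limma) did not pass. Without NZO replicate 2 it was 0.89 and called (adjusted p 0.0145 by limma, and 0.0145 to 0.988 over all alternatives), and without NZO replicates 4 and 5 it was 0.20.

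**Figure D2:**
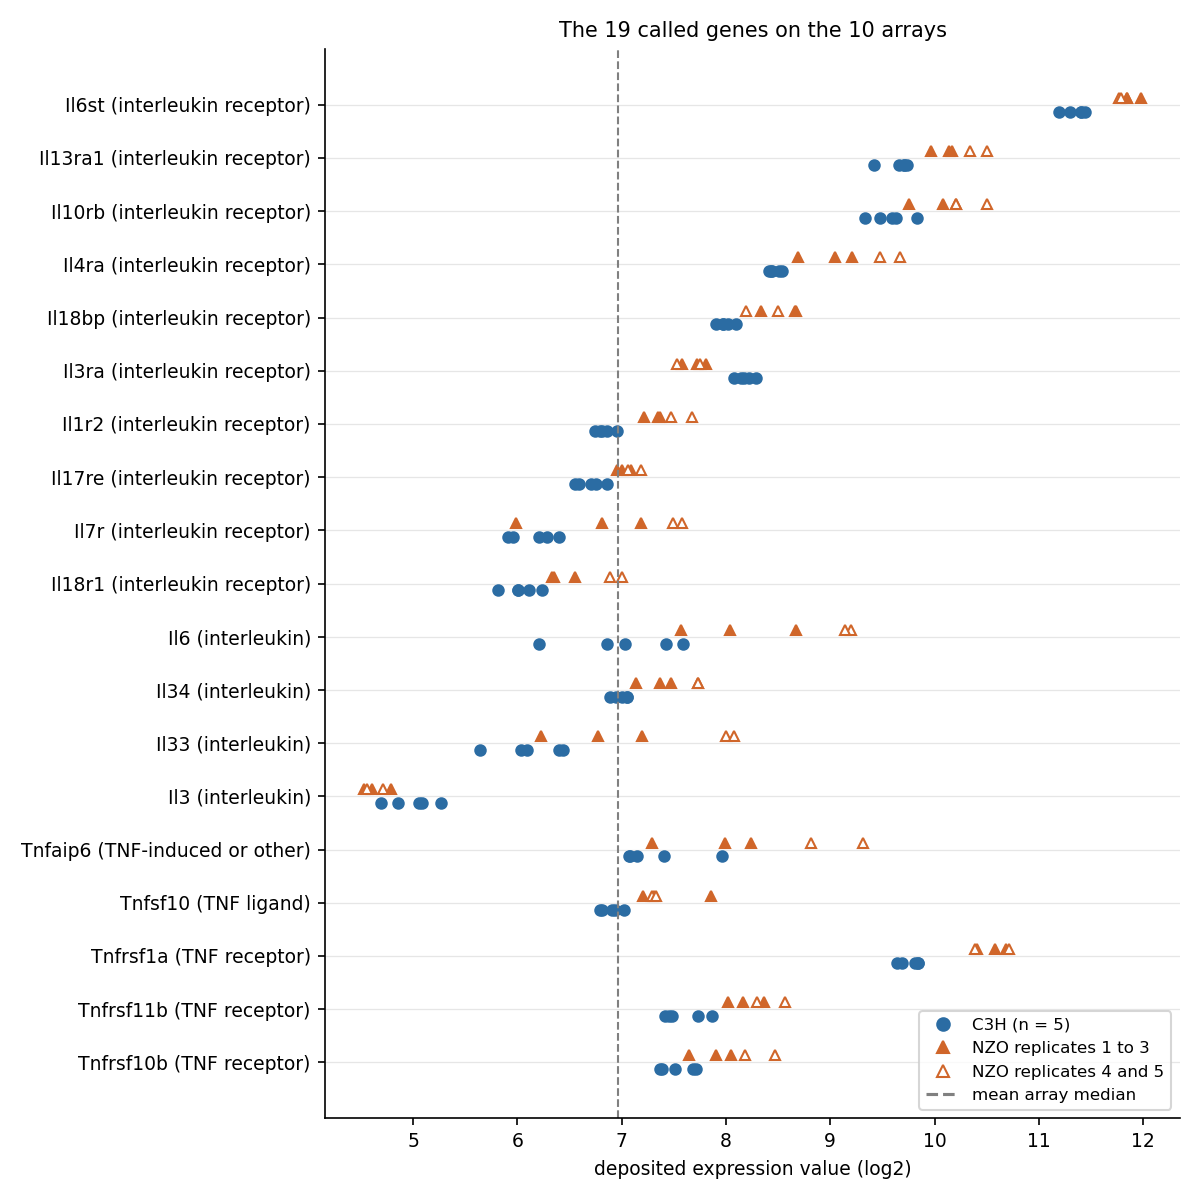
Log2 values of the 19 called genes, 1 row per gene with its role, where circles are the 5 C3H arrays, filled triangles NZO replicates 1 to 3 and open triangles NZO replicates 4 and 5, and the dashed line is the mean array median. The NZO points of Tnfrsf1a and Il6st all lie above the C3H points with little spread, while those of Il6, Il33, Il7r and Tnfaip6 spread over more than 1 log2 unit.

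The start regions of the gene with the smallest adjusted p, of the gene with the largest difference and of the called TNF-induced gene are printed because they hold the letters of binding motifs of factors downstream of these receptors. They run from 250 bases before to 50 bases after the gene start on the plus strand of GRCm38.p6, from RefSeq, which is the C57BL/6J reference and not the sequence of NZO or C3H. Capitals mark matches on either strand to GGANTTTCC (NF-kB-like), TGANTCA (AP-1-like) or TTCNNNGAA (STAT-like).
Tnfrsf1a, chr6:125349473-125349772: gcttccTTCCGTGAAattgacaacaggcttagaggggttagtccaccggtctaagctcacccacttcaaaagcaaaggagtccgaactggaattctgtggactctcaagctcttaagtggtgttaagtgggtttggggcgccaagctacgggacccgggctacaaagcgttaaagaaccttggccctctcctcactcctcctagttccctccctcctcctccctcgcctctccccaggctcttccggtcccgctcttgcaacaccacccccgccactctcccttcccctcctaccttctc
Il6, chr5:30012864-30013163: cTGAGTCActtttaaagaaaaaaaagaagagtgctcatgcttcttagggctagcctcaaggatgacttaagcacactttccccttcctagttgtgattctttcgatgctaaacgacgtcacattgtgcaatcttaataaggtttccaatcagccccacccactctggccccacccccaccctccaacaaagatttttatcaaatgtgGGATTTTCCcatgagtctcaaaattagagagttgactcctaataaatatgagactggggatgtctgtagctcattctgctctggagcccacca
Tnfaip6, chr2:52037863-52038162: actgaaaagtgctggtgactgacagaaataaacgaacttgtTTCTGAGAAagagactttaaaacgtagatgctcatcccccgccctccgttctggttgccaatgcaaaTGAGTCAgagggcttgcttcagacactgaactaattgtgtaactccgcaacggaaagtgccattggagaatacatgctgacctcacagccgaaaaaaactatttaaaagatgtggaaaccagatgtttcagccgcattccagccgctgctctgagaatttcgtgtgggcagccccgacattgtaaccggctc
In Tnfrsf1a the capitals are a STAT-like match 244 bases before the start. In Il6 they are an AP-1-like match at 249 and an NF-kB-like match at 43 bases before the start, and in Tnfaip6 a STAT-like match at 209 and an AP-1-like match at 142. No 2 of these matches overlap. Of 32851 such windows in the table, 1.25% held the NF-kB-like letters, 7.81% the AP-1-like and 8.3% the STAT-like letters, and of the 107 windows of the 90 members in it, 7.48%, 19.6% and 16.8% did. Of the 19 called members 15 were among these 90, and 10.1% of all genes were called. The NF-kB-like letters stood at 8 members, of which only Il6 was called, with Tnfaip3 and Tnfaip2 among the others. The AP-1-like letters stood at 20 members, 2 of them called, and the STAT-like letters at 18, 5 of them called. These counts are small, and a link between letters and calls was not tested. A match is a string of letters and no evidence of binding.

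In the interleukin-1 family, 4 of 18 genes were higher in NZO and none lower at the threshold of limma, with 6 at an unadjusted p under 0.05. These are 22.2% called and 33.3% at the unadjusted p, beside 10.1% and 21.8% of all genes. Il1r2, the decoy receptor for interleukin-1, read 6.80, 6.81, 6.95, 6.74 and 6.86 in C3H and 7.35, 7.21, 7.37, 7.47 and 7.68 in NZO, without overlap. The difference was 0.59 (SE 0.09, 1.50-fold, adjusted p 0.000616 by limma). Il1rn, the secreted receptor antagonist, read 7.0, 7.11, 7.50, 7.51 and 7.43 in C3H and 8.16, 7.43, 7.38, 8.70 and 8.84 in NZO. With NZO replicates 2 and 3 among the C3H values and the other 3 far above, its difference of 0.79 (SE 0.25) missed the threshold at an adjusted p of 0.0637 by limma. It was called without NZO replicate 2 (0.96, adjusted p 0.0144) or NZO replicate 3 (0.97, adjusted p 0.0218), and was 0.35 without NZO replicates 4 and 5, with adjusted p from 0.0144 to 0.998 over all alternatives of limma. Il1b, the main secreted agonist, read 6.63, 6.67, 6.57, 6.81 and 6.96 in C3H and 7.12, 6.65, 6.95, 6.86 and 6.74 in NZO. The strains overlapped over most of their range, and the difference of 0.14 had a 95% interval of -0.08 to 0.35.

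The interleukin-18 arm had its inhibitor and a receptor chain among the calls. Il18bp, a secreted protein that binds and blocks interleukin-18, read 7.97, 7.90, 8.10, 7.97 and 8.02 in C3H and 8.67, 8.33, 8.66, 8.19 and 8.50 in NZO. The strains did not overlap, and NZO replicates 4 and 5 were not the highest here. The difference was 0.48 (SE 0.10, 1.39-fold, adjusted p 0.00497 by limma). Il18r1, the ligand-binding receptor chain, was dim, with a C3H mean of 6.03 ± 0.15 and an NZO mean of 6.62 ± 0.31 (SD, n = 5 each). The strains did not overlap, with a difference of 0.59 (SE 0.13, adjusted p 0.0094 by limma). The cytokine Il18 differed by -0.13 (95% interval -0.32 to 0.07) and was not called. It was called lower with array weights (-0.22, adjusted p 0.0299 by limma). Without C3H replicate 4 it differed by -0.20 and was not called (adjusted p 0.0992 by limma). Il1r2, Il1rl2, Il18r1 and Il18rap follow one another in this order among the measured members on chromosome 1. Their differences were 0.59, 0.01, 0.59 and 0.09, so among these measured genes called ones alternated with genes not called. Il1r1 and Il1rl1 were not analysed and are left out of this order.

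Il33, an alarm signal stored in the nuclei of stromal and endothelial cells, read 6.03, 6.44, 5.64, 6.09 and 6.40 in C3H and 6.77, 6.23, 7.20, 8.00 and 8.08 in NZO. Replicate 2 lay inside the C3H range and replicates 4 and 5 at the top. The difference was 1.13 (SE 0.29, 2.19-fold, adjusted p 0.0236 by limma). It lost its call without C3H replicate 1, C3H replicate 3, NZO replicate 4 or NZO replicate 5, at an adjusted p of up to 0.0699. Il1f8, a dim member of this family, differed by -0.31 and was not called (adjusted p 0.104 by limma).

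The shared chain of the interleukin-4 and interleukin-13 receptors, Il4ra, read 8.43, 8.44, 8.42, 8.54 and 8.51 in C3H and 9.05, 8.69, 9.21, 9.47 and 9.67 in NZO. The C3H arrays lay close together, and the NZO arrays spread widely, all above them. The difference was 0.75 (SE 0.14, 1.68-fold, adjusted p 0.00333 by limma). A chain that pairs with it, Il13ra1, read 9.66, 9.74, 9.70, 9.42 and 9.71 in C3H and 10.16, 9.97, 10.14, 10.50 and 10.34 in NZO. These did not overlap, with C3H replicate 4 below its group, and the difference was 0.58 (SE 0.10, 1.49-fold, adjusted p 0.00184 by limma). Both chains of this receptor were thus higher in NZO, while the cytokines Il4 and Il13 differed by 0.08 and -0.05 and were not called. Il7r, the interleukin-7 receptor of lymphocytes and some myeloid cells, read 5.96, 6.40, 6.21, 5.91 and 6.28 in C3H and 6.81, 5.99, 7.18, 7.50 and 7.58 in NZO. NZO replicate 2 was again inside the C3H values. The difference was 0.86 (SE 0.24, adjusted p 0.0327 by limma), and 7 of the 10 arrays ended the call when left out in turn, all but C3H replicate 2, NZO replicate 1 and NZO replicate 2, with an adjusted p of up to 0.0896.

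Both members that were lower in NZO belong to the interleukin-3 pathway. The receptor chain Il3ra read 8.14, 8.18, 8.08, 8.29 and 8.22 in C3H and 7.58, 7.81, 7.72, 7.53 and 7.75 in NZO. Each NZO array was below each C3H array, and the spread in each strain was small. The difference was -0.50 (SE 0.08, adjusted p 0.0007 by limma), which makes C3H 1.42-fold higher. The ligand Il3 was below the 25th percentile of brightness in both strains, with a mean of 4.99 ± 0.22 for C3H against 4.64 ± 0.11 for NZO (SD, n = 5 each), so no fold is given. Its difference of -0.35 (SE 0.10, adjusted p 0.0428 by limma) lost the call when any array but C3H replicate 2 or NZO replicate 2 was left out, at an adjusted p of up to 0.112. Il5 and Il5ra, which share the beta chain with them, differed by 0.14 and 0.08 and were not called.

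A pair of further receptor chains were higher in NZO. Il10rb, shared by the receptors of interleukin-10, interleukin-22 and related cytokines, read 9.60, 9.83, 9.63, 9.33 and 9.48 in C3H and 10.20, 9.75, 10.08, 10.51 and 10.21 in NZO. Only NZO replicate 2 overlapped with C3H, and the difference was 0.58 (SE 0.13, 1.49-fold, adjusted p 0.00898 by limma). Its partner Il22ra1, through which interleukin-22 acts on islet cells, differed by 0.01 with a 95% interval of -0.25 to 0.26, and a dimmer probe set gave 0.12. Il17re, a chain of the interleukin-17C receptor, read 6.56 to 6.86 in C3H and 6.95 to 7.19 in NZO. Without overlap between strains, the difference was 0.36 (SE 0.08, 1.29-fold, adjusted p 0.00918 by limma). Il17ra, the chain that all interleukin-17 receptors share, differed by 0.14 (95% interval -0.06 to 0.35) and was not called.

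Il34, a ligand of the macrophage growth factor receptor Csf1r, read 6.89 to 7.05 in C3H and 7.37, 7.14, 7.48, 7.74 and 7.73 in NZO. All NZO arrays lay above all C3H arrays, with replicates 4 and 5 highest. The difference was 0.50 (SE 0.11, 1.42-fold, adjusted p 0.0075 by limma). In the interleukin-12 family, limma called none of the 6 genes, with 0 at an unadjusted p under 0.05 as well. The shares of all genes were 10.1% and 21.8%, and 6 genes are too few for a result about the family. Its differences ran from -0.16 to 0.11. The 32 members above the array median that were not called ran from -0.17 to 0.79, and the 63 below it from -0.31 to 0.29.

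The genes called higher shared an order among the NZO arrays. NZO replicate 2 was the lowest NZO array in 12 of the 17 (70.6%), and the highest was replicate 4 or 5 in 14 (82.4%). Among all 1090 genes called higher these shares were 52.6% and 63%. The SD was larger in NZO than in C3H for 15 of the 17 (88.2%) and for 72.9% of all such genes. Il6, Il33, Il7r and Tnfaip6 had this order, whereas Tnfrsf1a, Il6st and Il18bp did not place replicates 4 and 5 together at the top.

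Marker lists of other cells moved with the same arrays. Of 21 acinar genes, 18 were higher in NZO. Of 18 macrophage genes, 6 were higher, and their mean was 7.46 to 7.56 in C3H and 7.47 to 7.94 for NZO replicates 1 to 3, against 8.47 for replicate 4 and 8.59 for replicate 5. The 11 stellate cell and fibroblast genes, 2 of them higher, had means of 7.89 to 8.18 in C3H and 7.80 to 8.38, 8.97 and 9.01 on the same NZO arrays. For 7 duct genes, 3 of them higher, the C3H means were 7.82 to 8.03 and the NZO means 8.14 to 8.56, 9.08 and 9.06. Limma called none of 12 lymphocyte genes and none of 7 mast cell genes, with 0 of either at an unadjusted p under 0.05, and the lymphocyte mean was 5.80 to 6.33 in C3H and 5.84 to 5.98 in NZO. Endothelial genes gave 1 of 10 higher, with all 10 differences positive. At an unadjusted p under 0.05 limma had 6 of 10 endothelial, 12 of 18 macrophage, 6 of 11 stellate and fibroblast and 6 of 7 duct genes, beside 21.8% of all genes. Among endocrine markers, 4 of 12 beta cell, 2 of 5 alpha cell and 5 of 6 delta and PP cell genes were lower in NZO and none higher. The part of these cells in the cytokine and receptor differences was not tested.

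**Figure D3:**
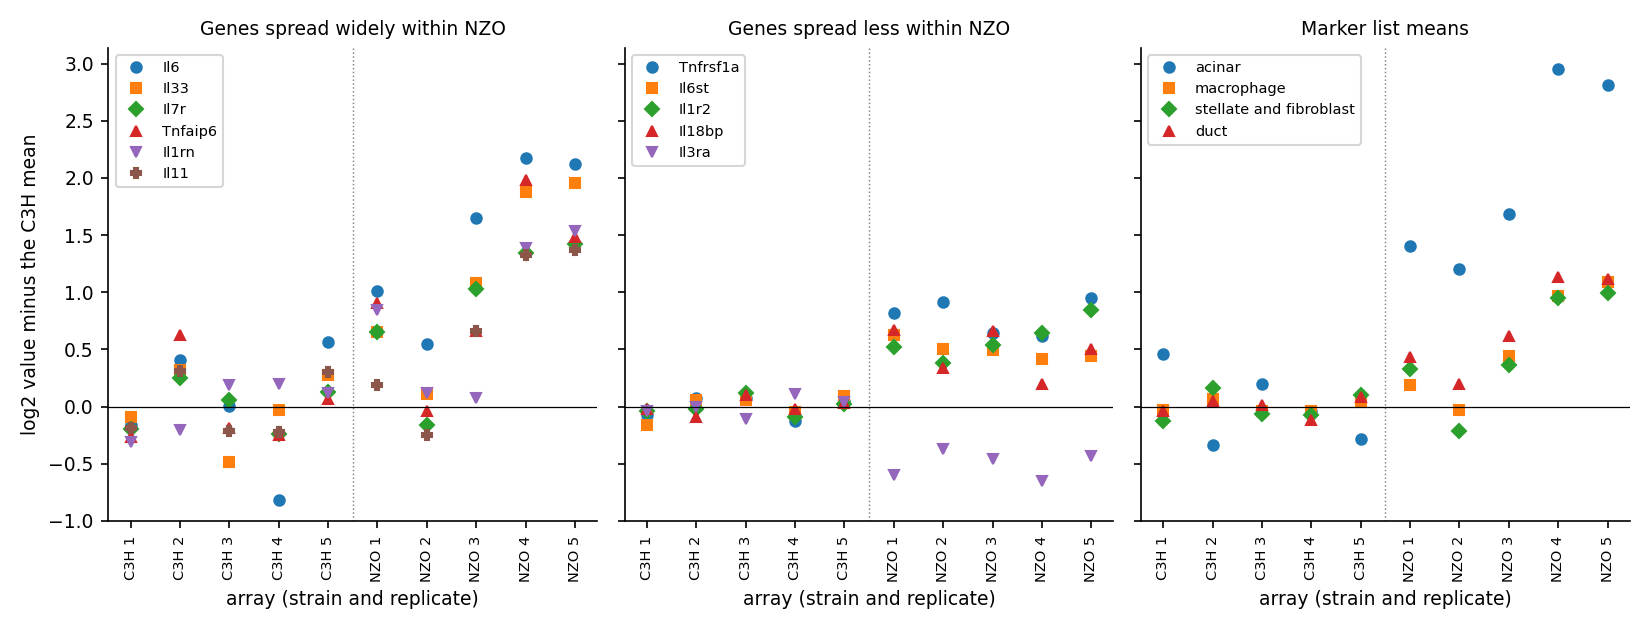
Log2 values of selected genes on each array minus the C3H mean, in the left and middle panels, and means of marker lists in the right panel, picked after their values were seen to show the order of the NZO arrays. On NZO replicates 4 and 5 the genes Il6, Il33, Il7r, Tnfaip6, Il1rn and Il11 and all 4 marker lists are highest, while Tnfrsf1a, Il6st, Il1r2, Il18bp and Il3ra differ from C3H on every NZO array.

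The members were therefore followed through fits that leave out NZO replicates 4 and 5 or carry a marker score for each array. Without NZO replicates 4 and 5, 10 members were called, 9 higher and 1 lower, against 5.54% of all genes. All 10 were among the 19, and all 19 kept their sign. They were Tnfrsf1a (0.79), Tnfrsf11b (0.59), Tnfsf10 (0.56), Il6 (1.07), Il6st (0.54), Il1r2 (0.48), Il18bp (0.56), Il4ra (0.51), Il13ra1 (0.45) and Il3ra (-0.48). Below the array median limma then called none of the 68. Of the 19, 11 kept at least 0.75 of their size. The SE over the 114 members was 1.18 times that of the fit to all arrays at the median. Among the 9 that lost the call, Il33 (0.61), Il7r (0.51) and Tnfaip6 (0.51) shrank most, while Il3 (-0.35) and Il17re (0.32) stayed near their size with all arrays.

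With the macrophage mean as a covariate, 7 of the 19 were called and no other member, where 4.39% of all genes were. They were Tnfrsf1a, Tnfrsf11b, Tnfsf10, Il6st, Il1r2, Il18bp and Il3ra. Il6 then differed by 0.71, Il4ra by 0.35, Il33 by 0.25, Tnfaip6 by 0.21 and Il7r by 0.19, none of them called. The SE over the 114 members was 1.32 times that of the fit without this covariate at the median. With the acinar mean as a covariate, 2 members were called, Tnfrsf1a at 0.89 (adjusted p 0.0293 by limma) and Il6st at 0.70 (adjusted p 0.0433 by limma), where 1.11% of all genes were. Over all alternatives the adjusted p of Tnfrsf1a ran from 4.47e-06 to 0.0293 and that of Il6st from 6.35e-05 to 0.0433. The acinar mean separates the strains without overlap, so this fit has little left to estimate the strain difference. Over all 114 members, the SE was 2.08 times that of the fit without it at the median. Their sign was kept by 15 of the 19 and turned in Il33 (-0.28), Tnfaip6 (-0.26), Il7r (-0.19) and Il34 (-0.04). Il4ra differed by 0.04 and Il6 by 0.33 in this fit. At least 0.75 of the size was kept by 7 of the 19, among them Tnfsf10 (0.72), Il18bp (0.66), Tnfrsf11b (0.55) and Il3 (-0.38), which were not called. Of the 18 named members not called with all arrays, 11 turned sign with the acinar mean, among them Il11 (-0.58), Tnfaip8 (-0.46), Tnfrsf12a (-0.40), Il1rn (-0.39), Tnfaip3 (-0.34), Tnf (-0.18) and Tnfrsf1b (-0.13). With the macrophage mean 6 of these 18 turned, Il11 (-0.13) among them, and without NZO replicates 4 and 5 it was 3.

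**Figure D4:**
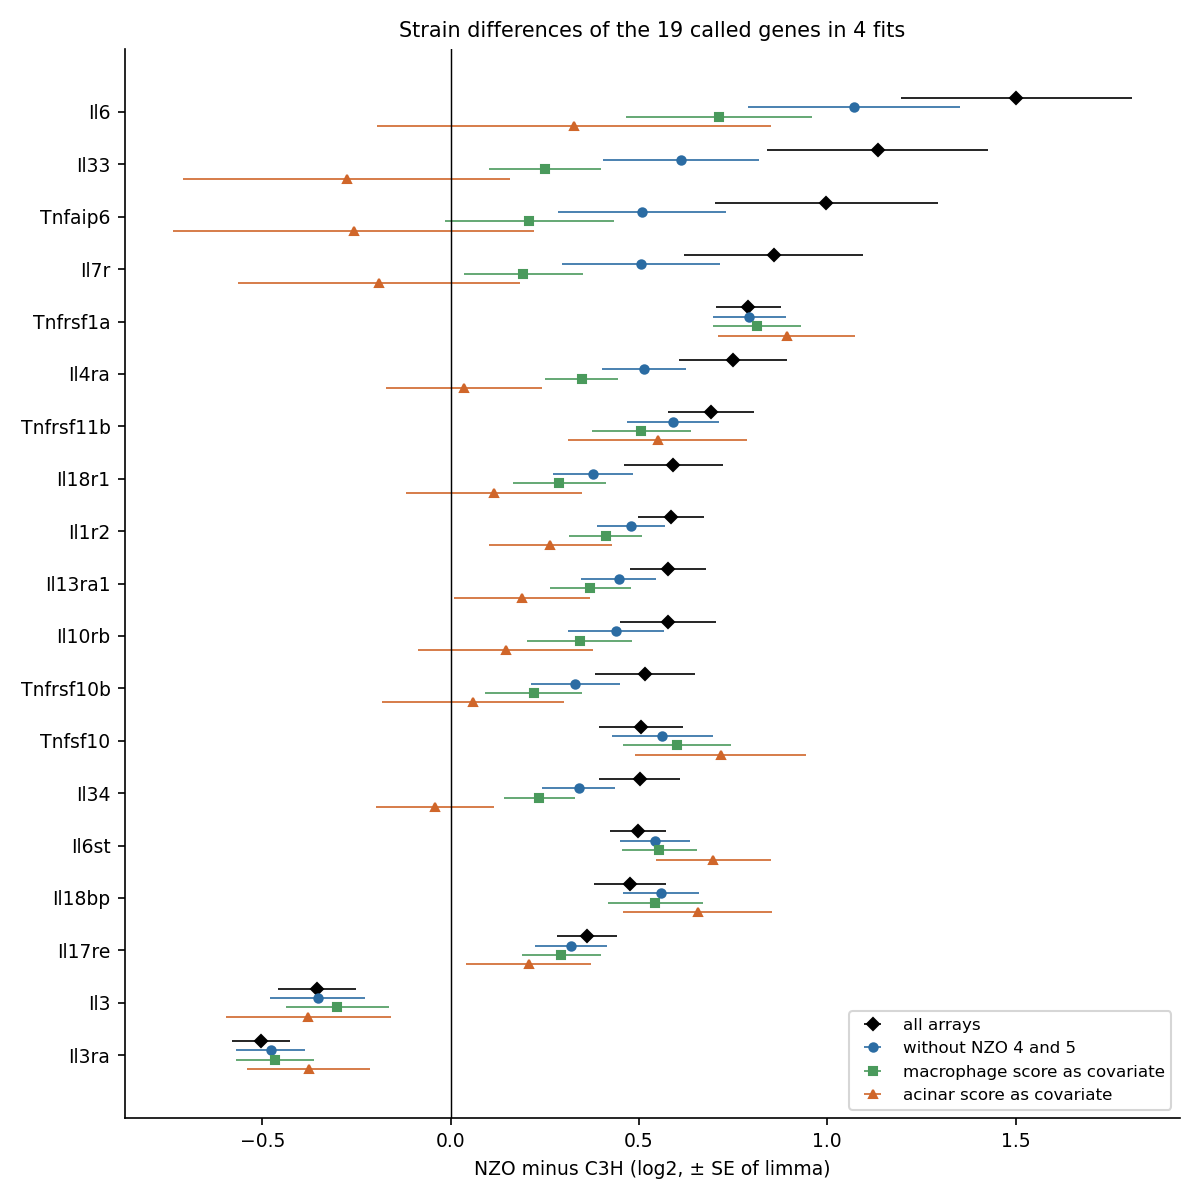
Difference between the strains (NZO minus C3H, log2, by limma) of the 19 called genes in 4 fits: all arrays, NZO replicates 4 and 5 left out, and a macrophage or acinar marker mean as covariate, with bars of 1 SE. Tnfrsf1a, Il6st and Il3ra keep their sign and most of their size in all 4. With the acinar mean Il33, Il7r, Tnfaip6 and, barely, Il34 move past 0, each by less than 1 SE and none called.

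Relatives whose symbols lack the prefix, and the signalling proteins below the receptors, were read from lists. Of 32 relatives measured, 4 were higher and 3 lower (21.9% called), beside 10.1% of all genes. Csf2rb2, the interleukin-3-specific beta chain, read 7.43 to 7.62 in C3H and 8.24, 7.79, 8.77, 9.31 and 9.19 in NZO, a difference of 1.13 (SE 0.23, adjusted p 0.00468 by limma). It moved opposite to its partner Il3ra, and its near-copy Csf2rb can share its probes. Osmr, which pairs with gp130 to bind oncostatin M, differed by 1.12 (SE 0.25, adjusted p 0.0107 by limma), and Ngfr, the low-affinity neurotrophin receptor of the TNF receptor family, by -0.57 (SE 0.11, adjusted p 0.00271 by limma). Named after their values were seen, to complete the count, Cd40 (0.38) and Eda2r (0.62) were also higher and Lifr (-0.35) and Fas (-0.30) lower.

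Of 33 proteins between TNF or interleukin-1 receptors and NF-kB, 3 were higher (9.09%, near the 10.1% of all genes), with a median difference of 0.001. These were the adaptors Traf4 (0.43, SE 0.10) and Myd88 (0.35, SE 0.08) and the nuclear cofactor Bcl3 (0.35, SE 0.09). Of 23 JAK and STAT genes, Socs3, the gp130 feedback inhibitor, was higher at 0.39 (SE 0.10, adjusted p 0.0173 by limma) and Socs5 lower at -0.35 (SE 0.09, adjusted p 0.0177 by limma). These are 8.7% of that list, also near the share of all genes, with a median of -0.07. Averaged over all its probe sets, Socs3 differed by 0.27 (adjusted p 0.0472 by limma). Without NZO replicates 4 and 5, Csf2rb2 (0.74) and Ngfr (-0.64) were called and Osmr (0.72), Traf4 (0.29), Myd88 (0.28), Bcl3 (0.29), Socs3 (0.34) and Socs5 (-0.39) were not.

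The study's design sought candidate genes for insulin secretion between 30 and 46 Mb of chromosome 7. None of the 114 members is among the 255 measured genes that start there in GRCm38.p6. On chromosome 7 as a whole lie 9 members, of which Il4ra and Il18bp were called, beside 10.1% of all genes. A count this small gives no result about that chromosome.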

How the data were processed

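RNA (150 ng per array, integrity number above 8) from islets was measured on a whole-transcript mouse array, per the labels' protocols. The authors deposited log2 values, 1 per probe set and array. The submitters' processing notes name RMA and the Affymetrix Expression Console. RMA equalises the array distributions and gives no detection call. The sources used here do not give versions, the probe library or the build.

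Of 35556 probe sets, 21789 carried 1 gene symbol, 1621 several, and 12146 are unnamed here. They gave 19938 genes, 999 with several probe sets, and 19856 matched by Entrez ID to a RefSeq gene table of GRCm38.p6. The strains were compared with limma 3.58.1 (lmFit, then eBayes; R 4.3.3) over all genes, two-sided, with Benjamini-Hochberg adjustment and a threshold of 0.05. SE and 95% intervals are those of limma. The script was tested on simulated data.

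The members, gene lists and motifs were chosen with earlier results of these data known. The named genes are all called members, the 3 brightest of each of 5 roles, the 5 largest differences not called, 15 well-known members where measured, and at most 3 called genes per pathway list. Others complete a count or pair. The 20 alternatives were 10 settings (filters, probe set means, centring, a second quantile normalization, an intensity trend, array weights, NZO replicates 4 and 5 left out, and 2 marker covariates) and leaving out each of 10 arrays. Counts of pathway genes and a split by the C3H mean were added after the data were seen.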

Additional observations from a re-analysis of the deposited data

Results flagged for a closer look

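Among the 37 named members, 74 groups of 5 arrays were searched for a value far from its group, and 4 held one. Chance gives about 1 in 20 such groups. C3H replicate 4 accounts for 3 of them. It read 9.42 for Il13ra1, where the other C3H arrays read 9.66 to 9.74, 6.40 for Il18, where they read 6.71 to 6.77, and 6.59 for Tnf, where they read 6.20 to 6.29. NZO replicate 1 read 7.86 for Tnfsf10, where the other NZO arrays read 7.20 to 7.33.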

How the results depend on the processing

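The 17 members higher in NZO became 9 without NZO replicates 4 and 5, 6 with the macrophage covariate and 2 with the acinar covariate, and ranged from 13 to 21 when single arrays were left out. The 2 lower became 1 under either brightness filter, 4 with array weights, 1 without NZO replicates 4 and 5, 1 with the macrophage and 0 with the acinar covariate, and 1 to 2 when single arrays were left out. The filters remove Il3. The 14 called above the array median became 7 with the macrophage and 2 with the acinar covariate, and ranged from 12 to 18. The 5 called below it became 3 with an intensity trend, 8 with array weights, 0 without NZO replicates 4 and 5 and 0 with either covariate. Leaving out single arrays gave 2 to 5, with 2 for C3H replicates 1 and 3 and NZO replicates 4 and 5, and 3 for C3H replicate 5 and NZO replicate 3. The median filter leaves none of them to test. The 12 called pathway genes became 22 with array weights, 4 without NZO replicates 4 and 5, 4 with the macrophage and 1 with the acinar covariate, and 6 to 16 when single arrays were left out. This count was added to the alternatives later. Splitting by the C3H mean, also added later, gave 12 called above and 7 below. With the acinar covariate the sign turned, among called genes, in Il33 (-0.28), Tnfaip6 (-0.26), Il7r (-0.19), Il34 (-0.0413), Csf2rb2 (-0.13) and Traf4 (-0.0026). The cause of these changes was not tested. Leaving out any 1 array kept the calls of 14 of the 19 members. The number of arrays limits the precision, and RMA values of dim genes understate differences. No paired analysis was possible because the labels pair no samples and the numbers only give the order of deposition.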
